A study of Mus musculus with 32 samples.

Results

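The collagen genes of the mouse were taken as every gene whose symbol is Col, a number, the letter a and a number, with a summed count of at least 100 over the 32 libraries. Of 24062 genes, 44 had such a symbol and all 44 reached that count; the lowest sums were 234 counts for Col7a1, 236 for Col5a3 and 249 for Col9a1. The rule holds only the symbol and the summed count and no difference between groups, but it was set with earlier results of these data known. A filter on low counts kept all 44 in the TRAP fraction and 40 in input, where Col5a3, Col7a1, Col8a2 and Col13a1 were too low to test.

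Collagens are the main proteins of the extracellular matrix. Each gene encodes a chain of Gly-X-Y repeats, and chains wind into a triple helix in the endoplasmic reticulum before they are secreted, trimmed and cross-linked. In the brain, fibrillar collagens are made chiefly by fibroblasts of the meninges and of large vessels, and collagen IV lines the basement membrane around vessels and below the pial surface, whereas a few membrane-spanning and fibril-associated collagens are made by neurons.

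The study used male S100a10 bacTRAP mice (founder line ES691), in which the ribosomal protein L10a fused to EGFP is driven by the regulatory elements of S100a10 in layer 5a projection neurons of the cortex and in any other cell in which those elements are active. Every group carries this transgene. The Sh + Flx anxious and Sh + Flx groups were housed singly from weaning (postnatal day 21) for at least 7 weeks, past postnatal day 70, and drank fluoxetine at 0.167 g/L for 21 days according to the labels; the anxious animals were those whose open-field behavior was judged anxious. The Sh group was housed singly and the Gh group in groups, both without the drug, and the labels name both as vehicle. Each group had 4 TRAP libraries, made from polysomes captured with antibodies to EGFP, and 4 input libraries of whole cortex, and each library pooled the cortices of 3 mice with hippocampus and striatum removed.

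Counts in genes were 9776244 to 64788703 per TRAP library and 19265435 to 34515281 per input library, of which collagen genes took 0.0479% to 0.1005% in TRAP and 0.0119% to 0.0148% in input. The counts of Gh TRAP 2 and 3 matched within sampling noise, with a mean chi-square of 1.132 per gene, against 2.173 for Sh TRAP 1 and 4 and at least 5.29 for every other pair of replicates. They were added together as 1 sample, written Gh TRAP 2+3, which leaves n = 3 in Gh TRAP and n = 4 in the other groups. Sh TRAP 2 and 3 stood apart from the other TRAP libraries. They had 20.4 and 11.2 CPM of S100a10 (reads of a gene relative to the size of its library), against 41.5 to 73.0 in the others, and 25396.5 and 40707 CPM of the nuclear RNA Malat1, against 3106 to 8117. The collagen genes called against the Sh TRAP group are therefore given with and without them. Without them the group holds only Sh TRAP 1 and 4, the closest pair (2.173) after the one that was summed. If these 2 share a pool, every value without Sh TRAP 2 and 3 rests on 1 independent Sh sample. In all 4 input groups replicates 1 and 4, and 2 and 3, were closer to each other than any other pair, for example in Sh + Flx input with a mean chi-square of 5.286 and 5.443, against 13.53 to 16.15. The same pairs were closest in Gh, Sh and Sh + Flx TRAP, in the last by little (35.08 for 1 and 4, against 37.34 for 1 and 2). Sh TRAP 2 and 3 (64.84) are 1 such pair. In Sh + Flx anxious TRAP only 2 and 3 were (15.28), and 1 and 4 (46.34) were not. Nothing in the labels says whether such pairs share a pool or whether the replicates came from separate cohorts, so that the p-values measure the spread between these libraries only.

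Captured polysomes held more collagen mRNA than whole cortex did. In Gh mice 27 of 44 collagen genes passed the test, where 42.2% of all 17015 genes did; 24 were higher in TRAP and 3 were lower, where 20.3% and 21.9% of all genes were (edgeR's quasi-likelihood test, Benjamini-Hochberg adjusted p under 0.05). The median log2 fold change was 1.63 over the collagen genes and -0.06 over all genes. Averaged over the 4 groups, 33 passed, where 69.7% of all genes did, with 29 higher and 4 lower, where 32.3% and 37.4% of all genes were. The same average gave 29 higher and 7 lower without Sh TRAP 2 and 3, where 74.2% of all genes were called; Col17a1, which had 0 counts in both Sh TRAP libraries that remained, was then called lower, and its log2 fold change was 0.08 (not called) with all libraries. S100a10 itself, which marks the tagged cells, stood at 53.4 ± 0.583 CPM (scaled by TMM, as are all CPM values from here on; SD, n = 3) in Gh TRAP and 8.81 ± 1.69 CPM (SD, n = 4) in Gh input, a log2 fold change of 2.60.

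**Figure D1:**
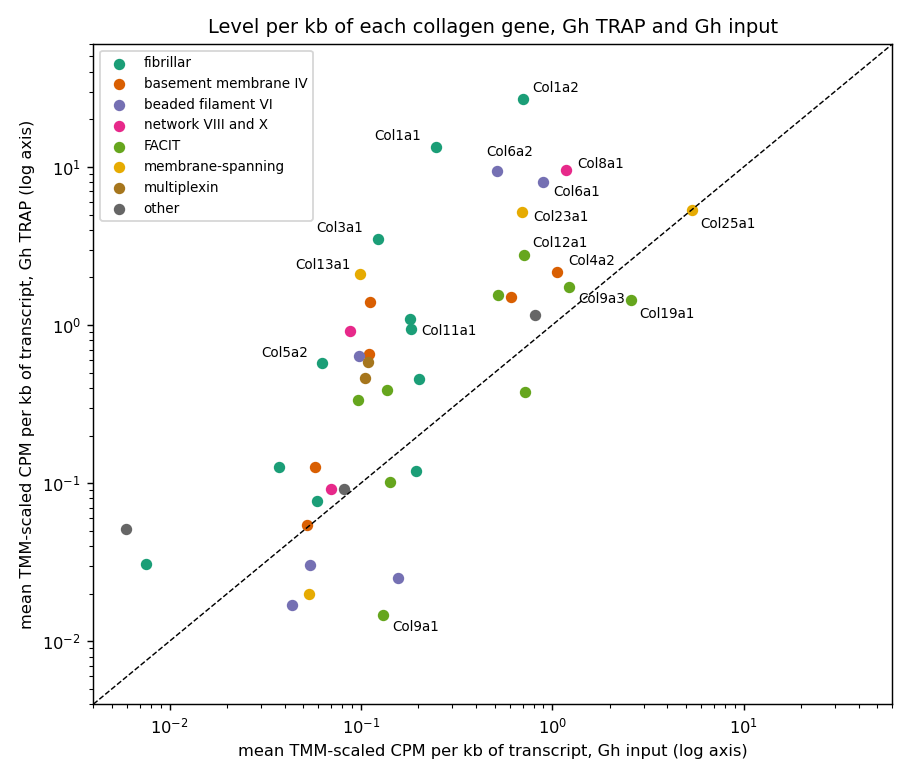
Mean level of each collagen gene per kilobase of transcript (TMM-scaled CPM per kb, log axes) in Gh TRAP (vertical) against Gh input (horizontal), colored by structural class, with a dashed line of equal level. Col1a2 and Col1a1 sit highest in TRAP, at 26.95 and 13.35, and Col25a1, at 5.313 in TRAP and 5.349 in input, lies on the line.

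The order of the collagens differed between the fractions. Per kilobase of transcript, the highest mean levels in Gh TRAP were 26.95 CPM for Col1a2, 13.35 CPM for Col1a1, 9.529 CPM for Col8a1, 9.474 CPM for Col6a2 and 8.065 CPM for Col6a1. In Gh input the highest were 5.349 CPM per kb for Col25a1, 2.571 for Col19a1, 1.228 for Col9a3, 1.181 for Col8a1 and 1.064 for Col4a2. The leading collagens of the whole cortex were thus a membrane-spanning and 2 fibril-associated genes, and those of the captured polysomes were the chains of collagen I, VIII and VI. Col8a1 and Col6a2 in TRAP did not differ beyond their spread.

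The fibrillar collagens, which form the cable-like fibers of connective tissue, held the 3 genes with the largest differences, Col1a1, Col1a2 and Col3a1. Of the 11 tested, 7 were higher in Gh TRAP than in Gh input and none was lower, with a median log2 fold change of 2.37. Col1a1 and Col1a2 encode the chains of collagen I. Col1a1 stood at 81.9, 80.2 and 75.5 CPM in Gh TRAP 1, 2+3 and 4, against 1.63, 1.46, 1.14 and 1.62 CPM in Gh input 1 to 4. Its log2 fold change was 5.75, with a standard error of 0.36 (5.75 ± 0.36 in the notation used from here on) and an adjusted p = 3.12e-14 in edgeR. Col1a2 stood at 150.9, 124.9 and 146.4 CPM in Gh TRAP, against 4.32, 3.38, 3.92 and 3.15 CPM in Gh input, a log2 fold change of 5.25 ± 0.30 (adjusted p = 6.09e-15, edgeR). Col3a1, the single chain of collagen III, which co-assembles with collagen I, stood at 15.5, 22.5 and 20.6 CPM in Gh TRAP, against 0.657, 0.974, 0.549 and 0.552 CPM in Gh input, a log2 fold change of 4.82 ± 0.39 (adjusted p = 9.60e-12, edgeR). Every TRAP sample lay far above every input library for these 3 genes. Col5a2, a chain of the collagen V that nucleates such fibers, had 3.65, 3.53 and 4.31 CPM in Gh TRAP, against 0.219, 0.130, 0.760 and 0.552 CPM in Gh input (log2 fold change 3.25 ± 0.42), and Col11a1, a chain of the related collagen XI, had 7.77, 7.31 and 6.68 CPM against 1.16, 1.43, 1.65 and 1.38 CPM (2.37 ± 0.29). Col5a1 was also higher, by 2.61, and Col27a1 by 1.18, the last with overlapping samples. Col2a1, Col5a3, Col11a2 and Col24a1 did not pass the test.

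The RefSeq windows from 250 bases before to 50 after the start site (build GRCm38.p6) are shown for Col1a2 and Col3a1. Col1a2 was the highest collagen mRNA per kilobase in TRAP. For Col3a1 every fluoxetine TRAP sample lay above every Sh and Gh TRAP sample. Col1a2 runs from 4505618 to 4541543 on the plus strand of chromosome 6 (window chr6:4505368-4505667) and Col3a1 from 45311538 to 45349706 on the plus strand of chromosome 1 (window chr1:45311288-45311587). Capitals mark 3 motifs on either strand, the CCAAT box with just those letters, the TATA box with the letters TATAAA, and the GC box with the letters GGGCGG.
Col1a2: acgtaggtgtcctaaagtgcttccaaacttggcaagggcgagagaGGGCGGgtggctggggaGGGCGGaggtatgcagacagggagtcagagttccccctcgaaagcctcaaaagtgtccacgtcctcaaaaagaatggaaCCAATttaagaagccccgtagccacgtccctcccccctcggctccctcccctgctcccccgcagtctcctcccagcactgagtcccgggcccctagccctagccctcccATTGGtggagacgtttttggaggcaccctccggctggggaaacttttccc
Col3a1: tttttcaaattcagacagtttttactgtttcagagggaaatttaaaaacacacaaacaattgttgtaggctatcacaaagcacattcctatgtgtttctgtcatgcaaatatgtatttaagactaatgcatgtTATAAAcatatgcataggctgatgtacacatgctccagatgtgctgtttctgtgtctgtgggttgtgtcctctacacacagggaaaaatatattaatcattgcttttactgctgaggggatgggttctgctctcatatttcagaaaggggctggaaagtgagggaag
The Col1a2 window held 2 CCAAT boxes and 2 GC boxes with 61.0% G and C, and the Col3a1 window held a TATA box 117 bases before the start and 37.7% G and C. Of the 44 collagen genes, 35 had a window in the table. A CCAAT box occurred in 13 of the 35, a TATA box in 5 and a GC box in 22, and they occurred in 37.4%, 13.6% and 35.7% of all 32851 windows of this length. The 3 motifs do not overlap one another in letters, and a match is only a description of the sequence.

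**Figure D2:**
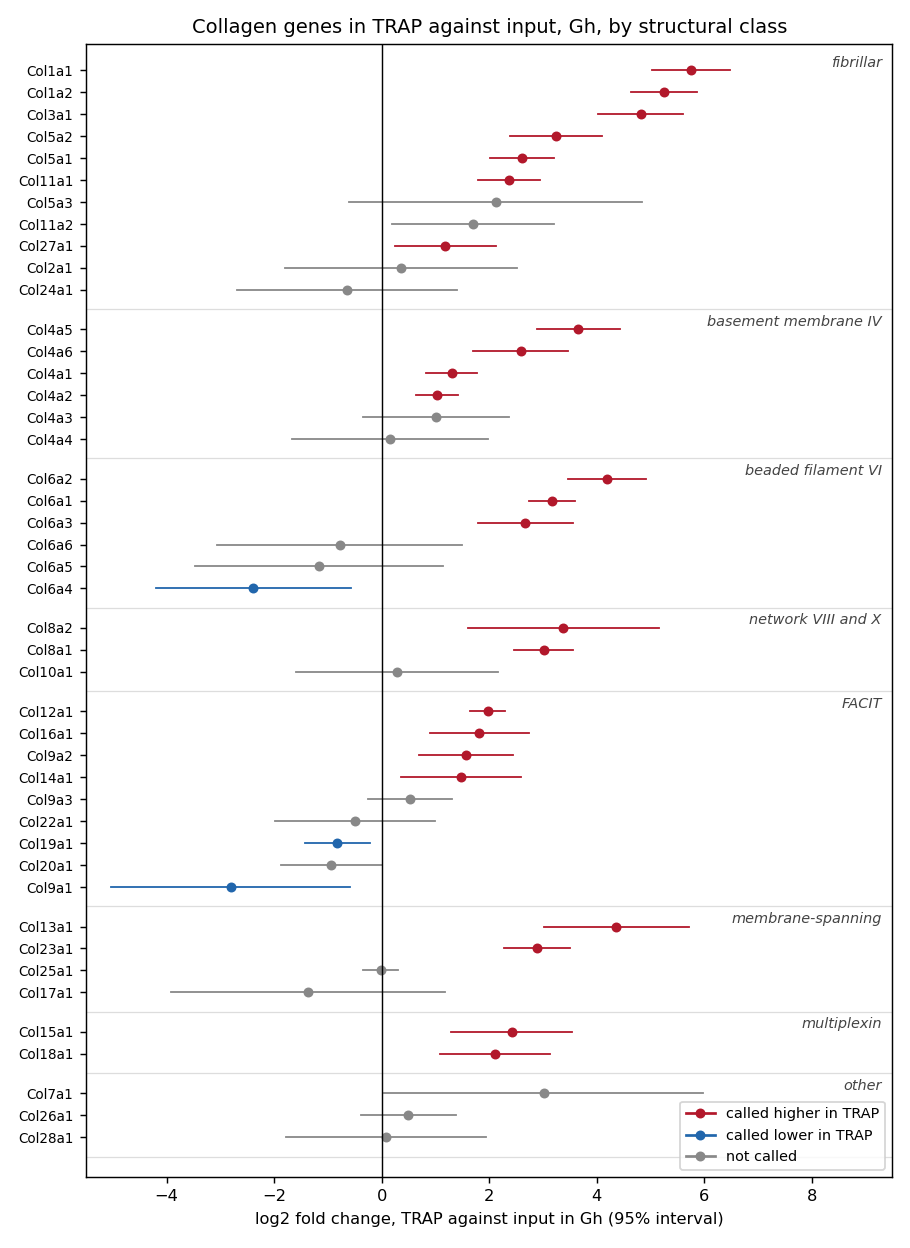
Log2 fold change of Gh TRAP over Gh input with its 95% interval for the 44 collagen genes, grouped by structural class; red marks genes called higher, blue genes called lower and grey genes not called. Col1a1, Col1a2, Col3a1 and Col13a1 lie highest, between 4.36 and 5.75.

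The collagen IV genes, whose chains form the sheet of the basement membrane, were higher by less. Of 6 tested, 4 were higher and none was lower, with a median of 1.16. Col4a1 and Col4a2, the chains of nearly all basement membranes, had 9.37, 11.1 and 9.23 CPM and 14.1, 11.7 and 16.0 CPM in Gh TRAP 1, 2+3 and 4, against 3.60, 4.55, 3.88 and 4.10 CPM and 8.04, 6.53, 5.23 and 7.65 CPM in Gh input. Their log2 fold changes were 1.30 ± 0.24 and 1.02 ± 0.19, with no overlap of samples. Col4a5 and Col4a6, X-linked genes whose chains form other collagen IV networks, were higher by 3.65 ± 0.38 and 2.58 ± 0.43, with 7.40, 8.34 and 11.4 CPM of Col4a5 in Gh TRAP, against 0.751, 0.520, 0.633 and 0.986 CPM in Gh input. Col4a3 and Col4a4 did not pass the test (1.01 and 0.15).

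Collagen IV genes lie in head-to-head pairs, and the windows of the pair Col4a1 and Col4a2 are shown because their start sites are 21 bases apart on opposite strands of chromosome 8, so that the windows overlap by 78 bases. The Col4a1 window is chr8:11312777-11313076 on the minus strand and the Col4a2 window chr8:11312555-11312854 on the plus strand.
Col4a1: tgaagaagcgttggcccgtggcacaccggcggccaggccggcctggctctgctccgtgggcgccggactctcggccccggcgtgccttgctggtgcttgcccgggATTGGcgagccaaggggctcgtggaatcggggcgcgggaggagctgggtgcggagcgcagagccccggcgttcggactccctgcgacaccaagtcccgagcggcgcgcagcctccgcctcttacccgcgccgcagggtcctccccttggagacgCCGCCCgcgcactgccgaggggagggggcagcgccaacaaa
Col4a2: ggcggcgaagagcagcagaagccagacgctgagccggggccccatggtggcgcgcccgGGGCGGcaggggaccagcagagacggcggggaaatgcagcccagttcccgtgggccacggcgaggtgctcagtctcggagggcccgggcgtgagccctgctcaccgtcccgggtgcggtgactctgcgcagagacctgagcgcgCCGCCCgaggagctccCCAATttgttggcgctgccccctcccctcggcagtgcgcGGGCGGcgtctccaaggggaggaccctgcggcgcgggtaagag
Both windows were rich in G and C (74.0% and 73.7%) and each held a CCAAT box, with 1 GC box in Col4a1 and 3 in Col4a2. Exons of Col4a1 and Col4a2 overlap by 85 bases. With Gm15418, also on the other strand, counted as well, exons of Col4a1 overlap others by 1073 bases. As the library kit does not mark strand, reads in these stretches cannot be told apart. The start sites of Col4a5 and Col4a6 are 1343 bases apart on opposite strands.

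The collagen VI chains, which form beaded filaments around cells, split into 2 kinds. Col6a1, Col6a2 and Col6a3, the classical trio, were higher in Gh TRAP by 3.17 ± 0.21, 4.19 ± 0.36 and 2.67 ± 0.43. Col6a2 stood at 40.4, 34.9 and 65.7 CPM in Gh TRAP, against 2.28, 3.28, 1.60 and 3.08 CPM in Gh input, and Col6a1 at 28.4, 33.7 and 34.1 CPM against 4.73, 3.05, 3.04 and 3.39 CPM. Every TRAP sample was above every input library. Col6a4 was lower by 2.39 ± 0.89 (adjusted p = 0.0302, edgeR), at 0, 0.218 and 0.342 CPM in Gh TRAP, against 1.88, 0.260, 1.60 and 0.907 CPM in Gh input. Its samples overlapped, and the call ended without any 1 of Gh TRAP 1, Gh TRAP 2+3, Gh input 1 or Gh input 3 (log2 fold change -2.38 to -2.04). Col6a5 and Col6a6 did not pass the test.

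The network collagens of the VIII and X class were represented by Col8a1 and Col8a2, the chains of the hexagonal lattice of vessel walls and of Descemet's membrane in the eye. Col8a1 had 61.0, 29.7 and 55.4 CPM in Gh TRAP, against 6.73, 4.42, 8.02 and 4.97 CPM in Gh input, a log2 fold change of 3.01 ± 0.27, and Col8a2 was higher by 3.38. Col10a1, the collagen of hypertrophic cartilage, did not pass (0.28). The multiplexins Col15a1 and Col18a1, collagens of basement membrane zones and the sources of restin and endostatin, were both higher, by 2.41 and 2.11 ± 0.50. Col18a1 stood at 3.18, 2.77 and 1.87 CPM in Gh TRAP, against 0.876, 0.779, 0.422 and 0.276 CPM in Gh input.

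The fibril-associated collagens (FACIT), which sit on the surface of fibers, went both ways. Col9a2, Col12a1, Col14a1 and Col16a1 were higher, and Col12a1 had 33.7, 33.1 and 31.2 CPM in Gh TRAP, against 10.3, 8.83, 6.92 and 7.18 CPM in Gh input (log2 fold change 1.97 ± 0.16). Col19a1, a collagen that subsets of brain neurons make in the mouse, was lower in TRAP. It stood at 13.4, 19.1 and 13.1 CPM in Gh TRAP, against 26.6, 24.4, 29.0 and 28.4 CPM in Gh input, a log2 fold change of -0.82 ± 0.30 (adjusted p = 0.0252, edgeR). No TRAP sample reached the input libraries, but the call ended without Gh TRAP 1 (-0.75, adjusted p = 0.0868) or Gh TRAP 4 (-0.72, adjusted p = 0.103). Col9a1, a chain of the collagen IX of cartilage, was lower by 2.81 ± 1.09 on 0, 0.0793 and 0.0912 CPM in Gh TRAP, against 0.376, 0.877, 0.422 and 0.355 CPM in Gh input. This call ended without any 1 of the 3 Gh TRAP samples or without Gh input 2 (log2 fold change -3.11 to -2.41). Col9a3, Col20a1 and Col22a1 did not pass the test; 237 bases of the exons of Col9a3 overlap Tcfl5 on the other strand.

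Of the membrane-spanning collagens, Col25a1 had the smallest difference between the fractions of all 44 genes. Col25a1, known as the precursor of a component of amyloid plaques and needed for motor innervation, had 48.4, 33.4 and 36.4 CPM in Gh TRAP, against 42.0, 35.5, 37.5 and 43.8 CPM in Gh input, a log2 fold change of -0.02 with a 95% interval from -0.34 to 0.31. The sign of this value changed under other scalings. Col23a1 was higher by 2.89 ± 0.30, at 34.4, 29.6 and 24.4 CPM in Gh TRAP, against 4.32, 4.94, 4.98 and 1.58 CPM in Gh input, and Col13a1, which supports the neuromuscular junction, by 4.36 ± 0.66. Col17a1, the hemidesmosome collagen, did not pass (-1.37), nor did the remaining genes Col7a1, Col26a1 and Col28a1. Col26a1 stood at 4.31, 3.13 and 2.39 CPM in Gh TRAP, against 2.75, 2.73, 1.56 and 2.13 CPM in Gh input.

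Genes that act on collagens were measured in the same test, in which 20.3% of all 17015 genes were higher and 21.9% were lower. Of 27 collagen-processing enzymes and chaperones, 14 were higher and 4 lower in Gh TRAP (median 1.09), among them Pcolce, which enhances procollagen cleavage (log2 fold change 5.46 ± 0.43), the collagen chaperone Serpinh1 (3.48 ± 0.41) and Crtap, a partner of prolyl 3-hydroxylase (3.23 ± 0.41), and, on the lower side, the procollagen N-proteinase Adamts3 (-1.23 ± 0.21) and the cross-linking oxidase Loxl2 (-0.72 ± 0.22). Of 10 collagen receptors, 7 were higher and none was lower (median 1.96), with Mrc2, which takes up collagen for breakdown, at 4.29 ± 0.39, the collagen-activated kinase Ddr2 at 3.91 ± 0.27 and the integrin subunit Itga1 at 3.26 ± 0.22. Of 25 other matrix genes, 24 were higher and none was lower (median 3.62), including Fn1 (5.30 ± 0.32), Ogn (5.26 ± 0.30), Bgn (4.91 ± 0.29) and Nid1 (4.14 ± 0.26), and of 12 collagen-degrading proteases and inhibitors, 6 were higher and 2 lower (median 0.50), with Mmp14 at 3.22 ± 0.43 and the protease inhibitor Timp3 at 2.89 ± 0.26.

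Markers of fibroblasts and of vessels were higher in TRAP together with the collagens. The counts that follow stand beside 20.3% of all genes higher and 21.9% lower. All 12 meningeal fibroblast markers, collagens left out, were higher in Gh TRAP (median log2 fold change 5.23) and none was at 0 in any group; their summed level was 3600 to 3935 CPM in Gh TRAP and 126.9 to 161.9 CPM in Gh input, and Igf2 made up the largest part, 1605 to 1679 CPM in Gh TRAP. Of 9 endothelial markers 7 were higher, with a sum of 114 to 143.5 CPM in Gh TRAP and 14.35 to 20 CPM in Gh input, and of 8 mural markers 4 were higher. All 5 general neuron markers were lower (median -0.70), and of 4 layer 5 projection neuron markers 1 was higher and 2 were lower. All 5 oligodendrocyte markers were lower, with a sum of 680.2 to 690.1 CPM in Gh TRAP and 1617 to 1843 CPM in Gh input. Of 5 astrocyte markers 1 was higher and 1 lower, of 5 microglia markers 1 was higher, and of 4 choroid plexus markers tested 2 were higher and 2 lower. The part of these cells in the collagen values was not tested, and in pooled tissue fewer cells of a type and less RNA per cell cannot be told apart.

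Single housing alone moved no collagen gene past the test used here in the TRAP fraction. The study, which gives 4 samples a group, did list Col11a1 as differing between these groups by edgeR. Of 44, edgeR called 0 between Sh and Gh TRAP, and 0% of all 16754 genes; 8 had an unadjusted p under 0.05, and DESeq2 called 1. The smallest p was that of Col11a1, which stood at 10.9, 19.6, 24.4 and 10.4 CPM in Sh TRAP 1 to 4, against 7.77, 7.31 and 6.68 CPM in Gh TRAP, all Sh samples higher (log2 fold change 1.17 ± 0.33, adjusted p = 0.206, edgeR). The 2 highest values were those of the libraries that stood apart. Without them 0 were called (9 at an unadjusted p under 0.05, DESeq2 0), where 0.0353% of all genes were, and Col11a1 was at 0.54 (adjusted p = 0.433). The value of 17 collagen genes then had the other sign, none of them called. Col1a1 was at 0.44 without them and -0.11 with all libraries, Col3a1 at 0.44 and -0.08, Col1a2 at 0.34 and -0.21, and Col19a1 at -0.14 and 1.01.

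A few collagen genes differed between the fluoxetine groups and Sh in the TRAP fraction, in both directions. Col1a1, Col3a1 and Col5a2 were higher and Col9a3, Col11a1 and Col19a1 were lower in the anxious group, and Col3a1 was higher and Col11a1 and Col19a1 were lower in Sh + Flx. Sh + Flx against Sh gave 3 calls among 44 collagen genes (6.82%), where 6.46% of all genes were called. Of these 3, 1 was higher and 2 were lower, where 2.65% and 3.81% of all genes were. Sh + Flx anxious against Sh gave 6 calls (13.6%), 3 higher and 3 lower, where 10.5% of all genes were called, 4.35% higher and 6.14% lower. The shares of collagen genes called were thus near those of all genes. Both comparisons share the Sh libraries, and without Sh TRAP 2 and 3 the calls were 0 (10 at an unadjusted p under 0.05, DESeq2 3) and 4, where 2.08% and 4.53% of all genes were called. In a fit of the compared groups alone edgeR called 0 in both (7 and 14 at an unadjusted p under 0.05), and with replicates 1 and 4, and 2 and 3, summed it also called 0 in both (4 and 6), whereas DESeq2 on all samples called 5 and 10.

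**Figure D3:**
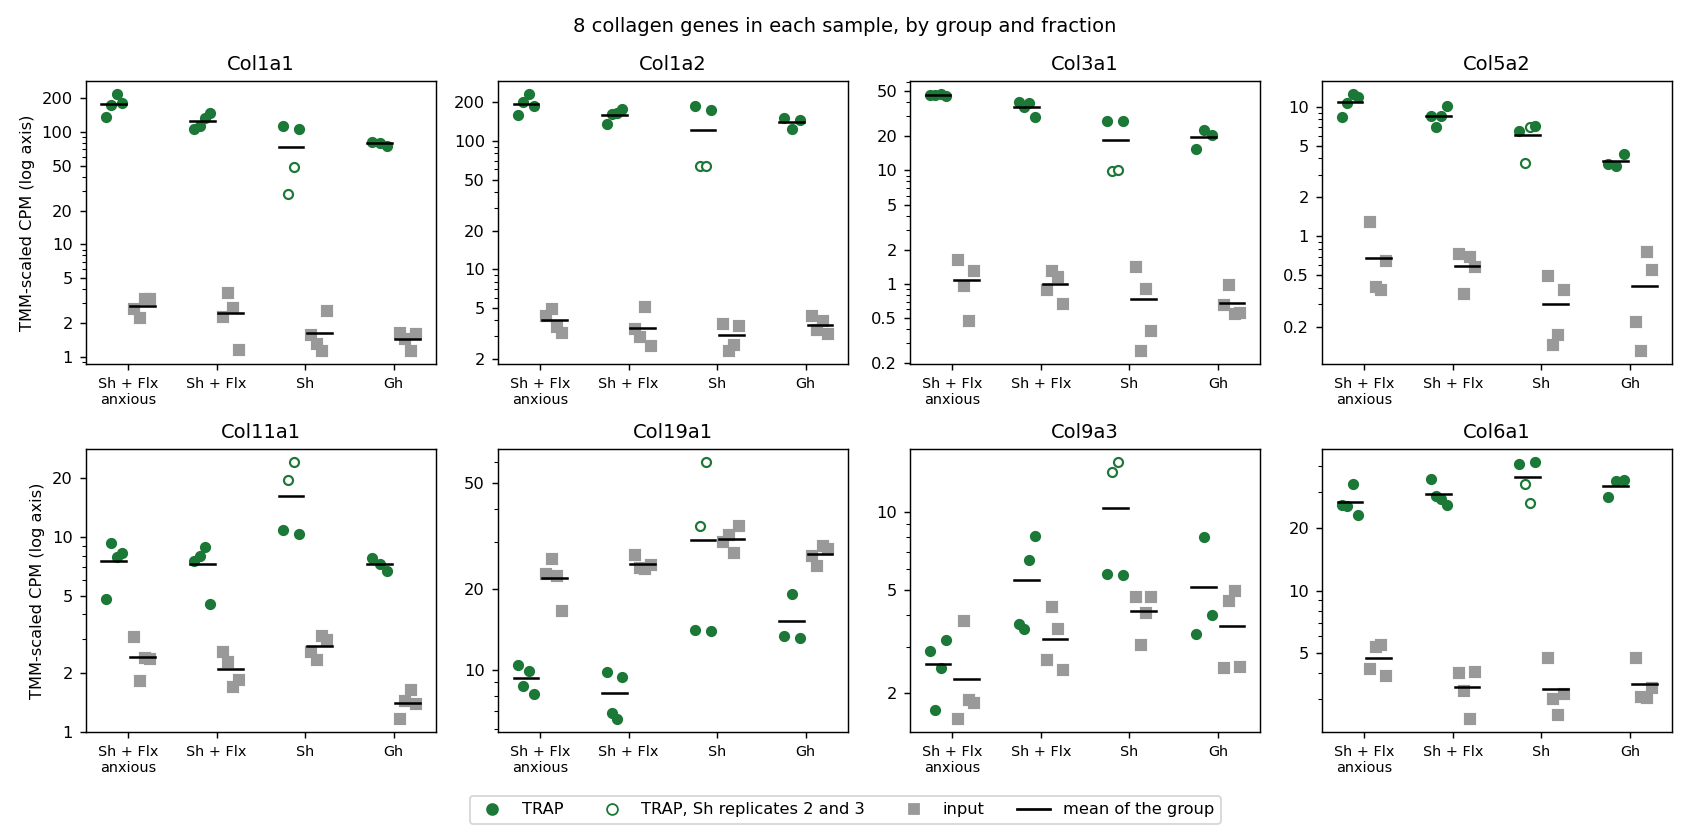
TMM-scaled CPM (log axis) of 8 collagen genes in each sample, with TRAP as green circles, input as grey squares, Sh TRAP 2 and 3 as open circles and a line at each group mean; groups run from Sh + Flx anxious through Sh + Flx and Sh to Gh. For Col3a1 the Sh + Flx anxious TRAP samples sit between 44.9 and 47.1, above all others, and for Col19a1 the open circles at 34.5 and 59.9 lie far above the remaining TRAP samples.

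Col3a1 was the most even of the genes that were higher. It stood at 46.2, 46.1, 47.1 and 44.9 CPM in Sh + Flx anxious TRAP 1 to 4, 40.2, 36.4, 39.2 and 29.6 CPM in Sh + Flx TRAP, 27.2, 9.89, 10.04 and 27.2 CPM in Sh TRAP, and 15.5, 22.5 and 20.6 CPM in Gh TRAP. Every fluoxetine sample was above every Sh and Gh sample, and the anxious samples were above those of the other fluoxetine group. The log2 fold change against Sh was 1.31 ± 0.27 in the anxious group (adjusted p = 0.00931, edgeR) and 0.96 ± 0.27 in Sh + Flx (adjusted p = 0.0439, edgeR). With Sh TRAP 2 and 3 left out these were 0.77 ± 0.16 (adjusted p = 0.0131) and 0.42 (adjusted p = 0.167). The anxious call ended in the fit of the compared groups alone (1.32, adjusted p = 0.0780) and with the replicate pairs summed (1.32, adjusted p = 0.328). The Sh + Flx call also ended without Sh TRAP 2 or 3 alone (0.76 each) or without any 1 of the Sh + Flx TRAP libraries (0.90 to 1.05).

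Col1a1 stood at 134.9, 171.8, 216.9 and 179.8 CPM in Sh + Flx anxious TRAP, 104.8, 112.6, 131.4 and 148.1 CPM in Sh + Flx TRAP, 113.3, 28.2, 48.4 and 104.8 CPM in Sh TRAP, and 81.9, 80.2 and 75.5 CPM in Gh TRAP. The anxious samples were all above the Sh and Gh samples, whereas the Sh + Flx samples overlapped Sh. Against Sh it was higher in the anxious group by 1.26 ± 0.30 (adjusted p = 0.0156, edgeR), and by 0.70 ± 0.16 (adjusted p = 0.0192) without Sh TRAP 2 and 3, but not called without Sh + Flx anxious TRAP 3 (1.14, adjusted p = 0.0531), in the fit of the compared groups alone (1.27, adjusted p = 0.0993) or with the replicate pairs summed (1.28, adjusted p = 0.328). In Sh + Flx against Sh its log2 fold change was 0.75 ± 0.29 (adjusted p = 0.114, edgeR), or 0.19 without both libraries, and it was called without Sh TRAP 1 (1.03) or 4 (0.96). Its partner Col1a2 stood at 160.2, 202.1, 232.5 and 187.4 CPM in the anxious group, 136.2, 161.7, 164.9 and 176.0 CPM in Sh + Flx, 186.2, 64.2, 63.3 and 174.7 CPM in Sh, and 150.9, 124.9 and 146.4 CPM in Gh, and did not pass in the anxious group against Sh (0.69 ± 0.27, adjusted p = 0.108, edgeR), at 0.13 without Sh TRAP 2 and 3. Sh TRAP 1 and 4 lay within the range of the anxious samples for Col1a2 and below it for Col1a1.

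Col5a2, the neighbor of Col3a1 on chromosome 1 (45374331 to 45503282, minus strand), stood at 8.34, 10.7, 12.6 and 11.9 CPM in Sh + Flx anxious TRAP, 8.46, 7.01, 8.52 and 10.2 CPM in Sh + Flx TRAP, 6.57, 3.67, 7.05 and 7.07 CPM in Sh TRAP, and 3.65, 3.53 and 4.31 CPM in Gh TRAP. Its anxious samples were above all Sh and Gh samples. Against Sh it was higher by 0.83 ± 0.24 (adjusted p = 0.0355, edgeR), and by 0.69 (adjusted p = 0.119) without Sh TRAP 2 and 3; the call also ended without Sh TRAP 2 (0.67) or any 1 of Sh + Flx anxious TRAP 2, 3 and 4 (0.76 to 0.84).

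All 3 genes that were lower, Col19a1, Col11a1 and Col9a3, had their highest values in the Sh libraries that stood apart. Col19a1 stood at 10.5, 8.69, 9.92 and 8.14 CPM in Sh + Flx anxious TRAP, 9.78, 6.90, 6.54 and 9.43 CPM in Sh + Flx TRAP, 14.1, 34.5, 59.9 and 13.9 CPM in Sh TRAP, and 13.4, 19.1 and 13.1 CPM in Gh TRAP. Its log2 fold change against Sh was -1.73 ± 0.37 in the anxious group (adjusted p = 0.0101, edgeR) and -1.92 ± 0.37 in Sh + Flx (adjusted p = 0.0118, edgeR). Without Sh TRAP 2 and 3 the values were -0.58 (adjusted p = 0.148) and -0.78 (adjusted p = 0.0776). All fluoxetine samples still lay below the Sh and Gh samples that remained.

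Col11a1 stood at 4.80, 9.31, 7.86 and 8.30 CPM in Sh + Flx anxious TRAP, 7.49, 8.02, 8.91 and 4.54 CPM in Sh + Flx TRAP, 10.9, 19.6, 24.4 and 10.4 CPM in Sh TRAP, and 7.77, 7.31 and 6.68 CPM in Gh TRAP. Against Sh it was lower by 1.11 ± 0.30 on the log2 scale in the anxious group (adjusted p = 0.0267, edgeR) and by 1.19 ± 0.30 in Sh + Flx (adjusted p = 0.0307, edgeR), and its fluoxetine samples overlapped those of Gh. The log2 fold changes were -0.48 (adjusted p = 0.33) and -0.56 (adjusted p = 0.299) without Sh TRAP 2 and 3. The calls also ended without Sh TRAP 2 or 3 alone (-1.01 and -0.84 in the anxious group, -1.08 and -0.91 in Sh + Flx), without any 1 of the Sh + Flx TRAP libraries (-1.30 to -1.01), and without Sh + Flx anxious TRAP 1, 3 or 4 (-1.15 to -0.95).

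Col9a3, a chain of collagen IX, stood at 2.90, 1.72, 2.49 and 3.20 CPM in Sh + Flx anxious TRAP, 3.69, 3.52, 6.52 and 8.05 CPM in Sh + Flx TRAP, 5.74, 14.3, 15.6 and 5.70 CPM in Sh TRAP, and 3.37, 8.005 and 4.01 CPM in Gh TRAP. Its anxious samples were below all others. Its log2 fold change against Sh was -1.997 ± 0.41 (adjusted p = 0.00867, edgeR), and -1.13 (adjusted p = 0.0953) without Sh TRAP 2 and 3. In Sh + Flx against Sh it was -0.93 ± 0.39 (adjusted p = 0.143, edgeR), and -0.06 without them.

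The start-site windows of Col11a1 and Col19a1 are shown because these 2 genes were lower in both fluoxetine groups against Sh over all libraries. Col11a1 (chromosome 3, 114030479 to 114220756, plus strand) has the window chr3:114030290-114030589 and Col19a1 (chromosome 1, 24257683 to 24587922, minus strand) the window chr1:24587388-24587687; as above, capitals mark the 3 motifs.
Col11a1: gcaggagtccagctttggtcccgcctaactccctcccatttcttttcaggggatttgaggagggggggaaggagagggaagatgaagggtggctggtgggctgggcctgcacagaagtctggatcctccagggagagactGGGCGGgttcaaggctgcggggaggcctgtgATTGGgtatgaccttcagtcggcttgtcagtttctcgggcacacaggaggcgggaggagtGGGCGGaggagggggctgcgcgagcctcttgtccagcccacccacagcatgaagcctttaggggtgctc
Col19a1: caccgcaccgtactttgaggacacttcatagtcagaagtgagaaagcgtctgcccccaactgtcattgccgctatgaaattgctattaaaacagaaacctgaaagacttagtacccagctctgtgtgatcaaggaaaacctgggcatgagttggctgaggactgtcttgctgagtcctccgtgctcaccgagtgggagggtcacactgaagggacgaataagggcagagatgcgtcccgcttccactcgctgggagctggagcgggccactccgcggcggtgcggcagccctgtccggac
The Col11a1 window held 2 GC boxes, the nearer 19 bases before the start, and a CCAAT box on the other strand, with 62.3% G and C. The Col19a1 window held none of the 3 motifs and 56.3% G and C.

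**Figure D4:**
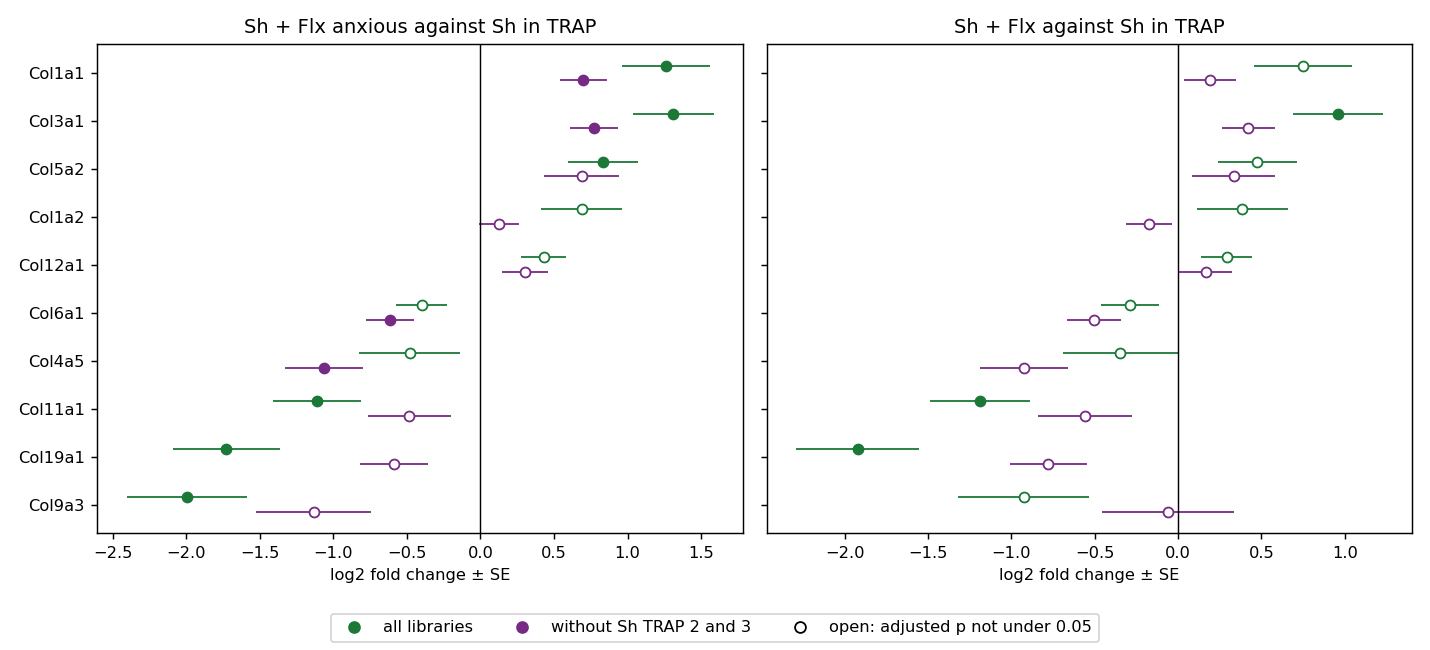
Log2 fold change with its standard error for 10 collagen genes in the TRAP fraction, Sh + Flx anxious against Sh on the left and Sh + Flx against Sh on the right, with all libraries in green and without Sh TRAP 2 and 3 in purple; open symbols have an adjusted p not under 0.05. Col3a1 and Col1a1 in the anxious group are filled at both of these settings, at 1.31 and 0.77 and at 1.26 and 0.70.

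Without Sh TRAP 2 and 3, 2 other collagens were called in the anxious group against Sh. Col4a5 stood at 6.75, 8.25, 10.8 and 5.95 CPM in Sh + Flx anxious TRAP, against 16.0, 5.43, 5.53 and 17.5 CPM in Sh TRAP 1 to 4, and was lower without Sh TRAP 2 and 3, by 1.06 ± 0.26 on the log2 scale (adjusted p = 0.0280, edgeR), and at -0.48 ± 0.34 (adjusted p = 0.378) with them. Col6a1 stood at 25.8, 25.7, 32.8 and 23.2 CPM in Sh + Flx anxious TRAP, against 41.1, 32.6, 26.5 and 41.9 CPM in Sh TRAP, and was lower without them, by 0.62 ± 0.16 (adjusted p = 0.0364, edgeR), and at -0.40 ± 0.17 (adjusted p = 0.137) with them. For both genes Sh TRAP 2 and 3 lay below the other Sh libraries. The 4 calls at this setting, 2 higher and 2 lower, are set against 4.53% of all genes. They compare the anxious group with Sh TRAP 1 and 4 only, which are nearly alike.

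The sum of the meningeal fibroblast markers, Igf2 included, was not highest in the TRAP groups in which Col1a1 and Col3a1 were. This sum was 2691 to 3784 CPM in Sh + Flx anxious TRAP, 2977 to 3993 CPM in Sh + Flx TRAP, 4947, 1690, 1931 and 4779 CPM in Sh TRAP 1 to 4, and 3600 to 3935 CPM in Gh TRAP. Without Igf2 the medians were 2351, 2542, 1813 and 2256 CPM in the same order of groups, highest in the fluoxetine groups, with overlapping samples. Igf2 itself had medians of 1033, 1081, 1543 and 1613 CPM. Of the 12 markers, 1 was higher and none was lower in the anxious group against Sh, where 10.5% of all genes were called. Against Gh 0 were higher, where 0.0716% of all genes were. Without Sh TRAP 2 and 3, 0 were higher and 6 lower against Sh, where 4.53% of all genes were called. Sh TRAP 2 and 3 were thus the lowest of all TRAP samples in both the marker sum and Col1a1, Col1a2 and Col3a1.

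The comparisons with Gh hold no Sh library, although the spread was estimated over all TRAP groups together. Here 1 of 44 collagen genes was called in Sh + Flx anxious TRAP, where 0.0716% of all genes were called. Col5a2 was higher by 1.51 ± 0.27 (adjusted p = 0.0397, edgeR), with values as given above and no overlap. The call ended without any 1 of the Gh TRAP samples or of Sh + Flx anxious TRAP 2, 3 and 4 (1.42 to 1.61). Col3a1 and Col1a1 were at 1.23 and 1.15 (adjusted p = 0.175 and 0.285, edgeR), again with every anxious sample above every Gh sample. Sh + Flx against Gh gave 0 calls in edgeR, where 0.00597% of all genes were called (5 collagen genes at an unadjusted p under 0.05, DESeq2 1), with Col5a2 at 1.15 (adjusted p = 0.211). In a fit of the compared groups alone the anxious group against Gh gave 3 calls, Col5a2 with Col1a1 (1.15, adjusted p = 0.000289) and Col3a1 (1.22, adjusted p = 0.000402), and Sh + Flx against Gh gave 2. The anxious group against Sh + Flx gave 0 in edgeR, where 0% of all genes were called (2 at an unadjusted p under 0.05, DESeq2 0); Col9a3 was at -1.07 (unadjusted p = 0.0148 from edgeR's quasi-likelihood fit) and every anxious sample was lower.

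Among the genes that act on collagens, Thbs1, an inducible matrix glycoprotein, and Adamts3 were lower in both fluoxetine groups against Sh in TRAP. Thbs1 was lower by 2.11 ± 0.35 on the log2 scale in the anxious group and by 1.36 ± 0.34 in Sh + Flx, and was at -2.46 and -1.70, still called, without Sh TRAP 2 and 3. Adamts3 was at -1.46 ± 0.25 in the anxious group and -0.94 ± 0.25 in Sh + Flx, and at -0.98 (called) and -0.46 (not called) without them. The basement membrane linker Nid1 was higher in the anxious group, by 0.88 ± 0.22 and, without them, by 0.46 (called both ways). Serpinh1 (0.96), Timp2 (0.66), Loxl2 (-0.98) and Agrn (-0.88) in the anxious group, and Bmp1 (-1.36) and Agrn (-1.15) in Sh + Flx, were called with all libraries and not without these 2, at 0.40, 0.31, -0.32, -0.46, -0.79 and -0.73 in the same order. Beside 10.5% of all genes, the anxious comparison called 1 higher and 2 lower of 26 processing enzymes, 1 higher and 2 lower of 25 matrix genes, and 1 higher of 12 proteases and inhibitors. Without these 2 libraries, beside 4.53% of all genes, the counts were 0 higher and 2 lower, 1 higher and 4 lower, and 0.

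In whole cortex few collagen genes passed the test between groups. Sh against Gh gave 0 of 40 in edgeR, where 0.0829% of all 15690 genes were called (5 at an unadjusted p under 0.05, DESeq2 0). Col11a1 stood at 2.55, 2.33, 3.11 and 2.96 CPM in Sh input, against 1.16, 1.43, 1.65 and 1.38 CPM in Gh input, with every Sh library higher (log2 fold change 0.97, adjusted p = 0.129, edgeR). Sh + Flx gave 0 against Sh (2.62% of all genes; 3 at an unadjusted p under 0.05, DESeq2 0) and 0 against Gh (5.31%; 7, DESeq2 0), and the anxious group gave 0 against Sh + Flx (0.127%; 0, DESeq2 0), all by edgeR.

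The anxious group gave 1 call against Sh in input, where 6.86% of all genes were called and 2.87% were lower, and 3 against Gh, all higher, where 11.5% were called and 6.21% were higher. Col19a1 stood at 22.9, 25.9, 22.4 and 16.7 CPM in Sh + Flx anxious input, 26.9, 24.0, 23.9 and 24.7 CPM in Sh + Flx input, 30.0, 32.0, 27.5 and 34.4 CPM in Sh input, and 26.6, 24.4, 29.0 and 28.4 CPM in Gh input. It was lower against Sh by 0.51 ± 0.11 on the log2 scale (adjusted p = 0.00258, edgeR) with no overlap, and leaving out any 1 library kept the call. Against Gh, Col1a1 was higher by 0.97 ± 0.31 (adjusted p = 0.0372, edgeR), at 2.68, 2.23, 3.28 and 3.27 CPM in the anxious group, against 1.63, 1.46, 1.14 and 1.62 CPM in Gh input. Col11a1 was higher by 0.79 ± 0.25 (adjusted p = 0.0357, edgeR), at 3.06, 1.82, 2.39 and 2.37 CPM against 1.16, 1.43, 1.65 and 1.38 CPM, and Col12a1 by 0.54 ± 0.14 (adjusted p = 0.0126, edgeR), at 11.9, 13.5, 13.1 and 10.3 CPM against 10.3, 8.83, 6.92 and 7.18 CPM, with overlap. The Col1a1 call ended without any 1 of the Gh libraries or of anxious libraries 1, 3 and 4 (0.87 to 1.03), the Col11a1 call without any 1 of Gh libraries 1, 2 and 4 or anxious libraries 1, 3 and 4 (0.65 to 0.80), and the Col12a1 call without Gh input 3 (0.46). With replicates 1 and 4, and 2 and 3, summed all 3 calls ended (0.97, 0.80 and 0.52 for Col1a1, Col11a1 and Col12a1, adjusted p = 0.133, 0.117 and 0.102, edgeR). In the same comparison 4 of 12 fibroblast markers were lower, with a sum of 75.35 to 102.8 CPM in the anxious group and 126.9 to 161.9 CPM in Gh input.

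**Figure D5:**
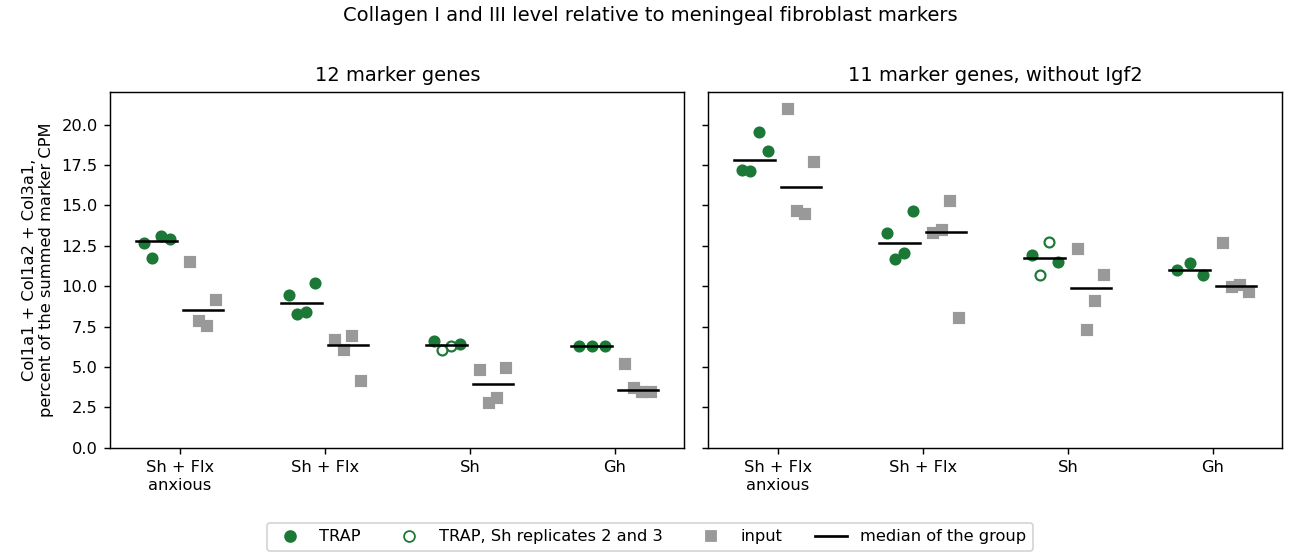
Summed CPM of Col1a1, Col1a2 and Col3a1 as a percentage of the summed CPM of the meningeal fibroblast markers (12 markers, and 11 without Igf2), per sample, with a line at the group median. With 12 markers the Sh + Flx anxious TRAP samples lie between 11.7% and 13.1%, above the Sh + Flx TRAP samples at 8.24% to 10.2% and the Sh and Gh TRAP samples, all between 6.05% and 6.60%.

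As a ratio to these markers, the collagen I and III genes were highest in the anxious TRAP samples, whereas Sh and Gh overlapped. This ratio was chosen after the values were seen and is a description without a test. Their sum was 11.7% to 13.1% of the marker sum in Sh + Flx anxious TRAP (median 12.8%), 8.24% to 10.2% in Sh + Flx TRAP (8.92%), 6.05% to 6.60% in Sh TRAP (6.36%) and 6.26% to 6.32% in Gh TRAP (6.31%). Sh TRAP 2 and 3, which stood apart in the CPM of these genes, did not stand apart in this ratio over 12 markers. With Igf2 left out, the values were 17.1% to 19.5%, 11.7% to 14.6%, 10.7% to 12.7% and 10.7% to 11.5%, so that Sh + Flx overlapped Sh and only the anxious samples lay above all others. Sh TRAP 2 (10.7%) and Sh TRAP 3 (12.7%) were then the lowest and the highest of the Sh samples. In input the ratio over 12 markers was 7.53% to 11.5%, 4.16% to 6.90%, 2.78% to 4.94% and 3.45% to 5.20% in the same order of groups, where the marker sum itself was lowest in the anxious group. With Igf2 left out the input ratios were 14.5% to 20.9%, 7.997% to 15.3%, 7.29% to 12.3% and 9.66% to 12.7%, so that the anxious group overlapped Sh + Flx.

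Whether a change differed between the fractions was tested as an interaction. Sh against Gh gave 0 of 44 in edgeR, where 0.0235% of all genes were called (3 at an unadjusted p under 0.05, DESeq2 0), and also 0 in edgeR without Sh TRAP 2 and 3, where 0.363% were (9 at an unadjusted p under 0.05, DESeq2 0). Sh + Flx against Sh gave 1 call, where 2.97% of all genes were called and 2.11% were lower: Col19a1, which fell further in TRAP than in input, by 1.59 ± 0.38 on the log2 scale (adjusted p = 0.0254, edgeR), and at -0.44 (adjusted p = 0.352) without Sh TRAP 2 and 3. At that setting 1 other gene was called, higher, where 1.10% of all genes were called. It was Col17a1, which had 0 counts in both remaining Sh TRAP libraries, so that no fold is given; it stood at 0.349, 0.0697, 0.357 and 1.22 CPM in Sh + Flx TRAP, against 0, 0.878, 2.45 and 0 CPM in Sh TRAP 1 to 4. The anxious group against Sh gave 2, both lower, where 7.31% were called and 5.17% were lower. Col19a1 was at -1.22 ± 0.38 (adjusted p = 0.0470, edgeR), and at -0.05 (adjusted p = 0.941) without these libraries. Col6a1 was at -0.89 ± 0.27 (adjusted p = 0.0446, edgeR), and at -1.06 (adjusted p = 0.0289) without them, then the only call, where 2.97% of all genes were called, with lower TRAP values in the anxious group than in Sh, as given above, beside input values of 4.19, 5.31, 5.45 and 3.85 CPM in the anxious group and 4.74, 2.99, 2.51 and 3.18 CPM in Sh. All 3 calls ended without any 1 of many of the libraries; the values without any 1 library were -1.84 to -1.02 for Col19a1 in Sh + Flx, -1.46 to -0.65 for Col19a1 in the anxious group and -1.10 to -0.77 for Col6a1.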

How the data were processed

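Per the labels and the study's methods, RNA was amplified with the Ovation V2 kit, which keeps no strand, and sequenced as 75-bp pairs on a NextSeq 500. Reads were placed on mm10 by TopHat2 2.0.11 using UCSC gene models. The authors deposited raw, unnormalized counts of reads, 1 table a library, made with a counting program not given in the sources used here. Tables of the authors' own comparisons hold mean FPKM, fold changes and p-values and were not used. Lines of the count tables that name no gene, of which reads outside annotated features made up 25.2% to 58.6% of a TRAP library and 45.1% to 55.2% of an input library, were left out.

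Genes were kept by filterByExpr with the groups as design, libraries were scaled by TMM, and glmQLFit and glmQLFTest of edgeR 4.0.16 gave the tests (R 4.3.3, limma 3.58.1) without covariates, with Benjamini-Hochberg adjustment over all genes kept and a threshold of 0.05. One fit held the TRAP samples (16754 genes), another the input samples (15690) and 1 more held both kinds (17015 genes), from which TRAP against input and the interactions came. Standard errors were taken as the log2 fold change over the square root of F. Alternatives were DESeq2 1.42.0, size factors of DESeq2's type, no filter on low counts, a fit of the compared groups alone, the replicate number as a block, replicates 1 and 4 and 2 and 3 summed, and leaving out each sample. Leaving out Sh TRAP 2 and 3 together, tested with edgeR and with DESeq2, and the ratio to fibroblast markers were chosen after seeing the data. Precision is limited by the counts, and at low levels such as those of Col9a1 by a few reads per sample.

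Members, gene lists and tests were chosen with earlier results of these data known. Values are given by sample for the most abundant members of each structural class and for up to 4 members with the smallest p in each direction among those called in a comparison, which named 19 members and 19 genes that act on collagens; Col4a5 and the other members mentioned with a value were added after their values were seen. Gene positions, transcript lengths and start-site windows are from RefSeq GRCm38.p6, the build of mm10. The procedure was tested on simulated data, and plots were made with Python 3.11.15, pandas 2.3.3, numpy 2.4.6 and matplotlib 3.10.9.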

Additional observations from a re-analysis of the deposited data

Results flagged for a closer look

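Single values far from the rest of their group of 4 were found in 5 of 133 groups, where chance gives about 1 in 20. Col25a1 stood at 38.7 CPM in Sh + Flx input 3, against 44.0 to 45.0 CPM in the other Sh + Flx input libraries, and at 38.9 CPM in Sh + Flx anxious input 4, against 43.9 to 44.6 CPM. Col9a1 stood at 0.877 CPM (27 counts) in Gh input 2, against 0.355 to 0.422 CPM. Col5a2 stood at 3.67 CPM (46 counts) in Sh TRAP 2, against 6.57 to 7.07 CPM in the other Sh TRAP libraries. Col9a3 stood at 3.79 CPM (75 counts) in Sh + Flx anxious input 2, against 1.59 to 1.87 CPM; without that library Col9a3 was lower in the anxious group against Sh in input, by 1.23 on the log2 scale (adjusted p = 0.00509, edgeR), and at -0.88 (adjusted p = 0.0537) with it.

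The change against Sh differed between the fractions, by a test of the difference itself, for Col19a1 in Sh + Flx (log2 difference -1.592) and in the anxious group (-1.219) and for Col6a1 in the anxious group (-0.8863). Without Sh TRAP 2 and 3 these were -0.44, -0.05 and -1.06, so that the difference of Col6a1 alone passed the test both ways.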

How the results depend on the processing

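The number of collagen genes called for TRAP against input was 23 to 29 in Gh and 30 to 37 over the 4 groups across all alternatives (23 to 27 and 32 to 35 when 1 sample was left out). Other counts moved more. With DESeq2 they were 1 for Sh against Gh in TRAP, 5 for Sh + Flx against Sh in TRAP, 10 for the anxious group against Sh in TRAP, 1 for Sh + Flx and 3 for the anxious group against Gh in TRAP, 2 for the anxious group against Sh in input and 4 for its interaction. In a fit of the compared groups alone they were 0, 0, 2 and 3 for Sh + Flx and the anxious group against Sh and then against Gh in TRAP, 1 and 3 against Sh in input, and 0 and 0 for the interactions; with replicates 1 and 4 and 2 and 3 summed they were 0 for Sh + Flx against Sh, 0 and 0 for the anxious group against Sh and Gh in TRAP, 0 against Gh in input and 0 and 0 for the interactions, on fewer samples. Without a filter the anxious group against Sh gave 2 in input and 1 in the interaction, and with the other size factors the interaction gave 0. Without Sh TRAP 2 and 3, Sh + Flx against Sh in TRAP gave 0 (DESeq2 3) and the anxious interaction 1 with either tool.

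Over all genes, deviations of TRAP and input with 1 number correlated at -0.02 to 0.04, and the main fits used no pairing. Whether libraries of 1 number share a pool or a batch was not tested, and such a correlation cannot decide it. With the replicate block the anxious group gave 2 calls against Sh and 1 against Gh in input, the interactions gave 0 in Sh + Flx and 1 in the anxious group, and no other count moved by over 1.5 times.

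When 1 library was left out, calls ranged from 1 to 6 for Sh + Flx and 3 to 9 for the anxious group against Sh in TRAP, 0 to 1 for the anxious group against Gh in TRAP, 1 to 2 against Sh and 1 to 5 against Gh in input, and 0 to 1 and 0 to 5 for the interactions of Sh + Flx and the anxious group with Sh; the other counts stayed at 0. Sh + Flx against Sh gave 1 without any 1 of Sh + Flx TRAP 1, 2 and 3 or Sh TRAP 2 and 3, and the anxious group against Sh 3 without Sh + Flx anxious TRAP 3.

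Among the values followed across all alternatives, those that changed sign were those of Col25a1 in TRAP against input (0.049 with DESeq2, 0.058 with the compared groups alone, 0.050 with other size factors, -0.19 to 0.034 without 1 sample other than Gh TRAP 2+3 and 0.087 without that one), Agrn in the same comparison (0.0015 with the compared groups alone, -0.15 to 0.076 without 1 sample, the highest without Gh TRAP 4), and Col19a1 (-0.14 with edgeR and with DESeq2) and Col6a4 (-0.37 and -0.36) for Sh against Gh in TRAP without Sh TRAP 2 and 3. Over all 44 genes, leaving out these 2 libraries changed the sign of 17 values for Sh against Gh, 15 for Sh + Flx and 12 for the anxious group against Sh in TRAP, none of them called. The causes were not tested.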

Other observations

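Summed over Col1a1, Col1a2 and Col3a1, the level was 341.3 to 496.5 CPM in Sh + Flx anxious TRAP, 281.2 to 353.8 CPM in Sh + Flx TRAP, 102.2 to 326.7 CPM in Sh TRAP and 227.5 to 248.3 CPM in Gh TRAP, and over all 44 genes it was 670.9 to 941 CPM, 627.5 to 765.5 CPM, 449.1 to 757.2 CPM and 550.5 to 618 CPM in the same order. The anxious samples were thus above every Sh and Gh sample in the sum of the 3 genes and overlapped Sh in the sum of all 44. In whole cortex the sum of the 3 was 7.33 to 8.65 CPM in the anxious group and 5.32 to 6.60 CPM in Gh. Sh TRAP 2 and 3 held 1.99 and 2.24 CPM of Col6a4, while Sh TRAP 1 and 4 held 0.139 and 0.195 CPM, beside 0.260 to 1.88 CPM in Gh input, and 0.878 and 1.73 CPM of Col13a1, while Sh TRAP 1 and 4 held 6.35 and 5.70 CPM, beside 0.0789 to 0.552 CPM in Gh input. In Sh input the mean CPM per kb was 0.0893 for Col6a4 and 0.0209 for Col13a1, against 0.156 and 0.0988 in Gh input.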
